A study of Homo sapiens with 12 samples.

Results

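The genes described here are 53 human genes of DNA replication and S phase, the part of the cell cycle in which the genome is copied. They were taken as a list of symbols grouped into 8 roles, from origin licensing to S-phase chromatin factors, and matched to the gene table by Ensembl ID. All 53 had a row among the 20015 genes of the table, and all 53 were among the 11323 genes with enough counts to be tested. The list was drawn up from gene function and not from a threshold on these values, but with earlier results of these data known.

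Transcript levels were measured by RNA sequencing in HT29 cells, an established human colorectal adenocarcinoma line, in which all groups express the nuclease Cas9. Cells transduced with a lentivirus for a non-targeting guide are called WT, and cells transduced for a guide to QRICH1, a transcription regulator, are called QRICH1 KO. Each genotype was given the solvent DMSO or 0.3 µg/ml tunicamycin (Tm) for 14 h, which makes 4 groups of 3 libraries each. The design sets unstressed against endoplasmic reticulum (ER) stressed cells in both genotypes, and its text calls the libraries biological replicates. Whether the QRICH1 KO cells are a clone or a pool is not given in the sources used here.

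A cell licenses its replication origins in G1, when ORC, CDC6 and CDT1 load the MCM2 to MCM7 ring onto DNA as an inactive helicase. On entry into S phase CDC45 and the GINS complex join the ring, and the polymerases, the PCNA clamp and its loader then copy both strands while ribonucleotide reductase and thymidylate synthase supply the nucleotides. Many of these genes are transcribed in a wave at the passage from G1 to S, driven by E2F transcription factors once the retinoblastoma proteins release them. Tunicamycin blocks the start of N-linked glycosylation and so causes unfolded proteins to build up in the ER, a stress that is known to hold cells in G1.

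Promoter sequence was examined because a shared E2F site is the best-known feature of this gene class. The RefSeq table of promoter windows (GRCh38.p14, from 250 bases before to 50 bases after a transcription start) held 44 of the 53 genes, in 57 windows. The genes without an entry were MCM4, MCM5, GINS4, POLD3, RPA2, RPA3, CCNE2, FAM111B and TONSL. The letters TTTGGCGC or TTTCGCGC, an E2F motif searched on both strands, were found in the windows of 15 of the 44 genes (34.1%), against 2.52% of the 9248 protein-coding genes tested that have a window. By window, 26.3% of the 57 held the motif, against 1.83% of the 13469 windows of tested protein-coding genes and 1.15% of all 35116 windows in the table. The windows of 4 genes that carry the motif and had the largest falls under Tm in WT are printed here, together with that of CDC6, which was added after its values were seen because its level went the other way. They run 5′ to 3′ on the strand of the gene, with the E2F letters in capitals.

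E2F2 chr1:23531184-23531483 (minus strand): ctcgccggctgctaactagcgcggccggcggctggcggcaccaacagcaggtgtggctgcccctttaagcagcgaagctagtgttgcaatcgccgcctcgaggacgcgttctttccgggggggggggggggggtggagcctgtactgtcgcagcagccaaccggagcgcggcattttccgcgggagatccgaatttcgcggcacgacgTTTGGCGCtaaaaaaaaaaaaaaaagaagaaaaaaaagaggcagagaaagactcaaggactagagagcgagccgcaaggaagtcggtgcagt
UHRF1 chr19:4909894-4910193 (plus strand): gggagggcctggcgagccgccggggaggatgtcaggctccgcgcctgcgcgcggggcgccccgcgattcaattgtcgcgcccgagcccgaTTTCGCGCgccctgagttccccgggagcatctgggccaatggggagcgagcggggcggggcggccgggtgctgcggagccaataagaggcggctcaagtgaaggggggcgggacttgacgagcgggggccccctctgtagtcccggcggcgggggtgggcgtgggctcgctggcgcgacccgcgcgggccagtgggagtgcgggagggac
MCM2 chr3:127598161-127598460 (plus strand): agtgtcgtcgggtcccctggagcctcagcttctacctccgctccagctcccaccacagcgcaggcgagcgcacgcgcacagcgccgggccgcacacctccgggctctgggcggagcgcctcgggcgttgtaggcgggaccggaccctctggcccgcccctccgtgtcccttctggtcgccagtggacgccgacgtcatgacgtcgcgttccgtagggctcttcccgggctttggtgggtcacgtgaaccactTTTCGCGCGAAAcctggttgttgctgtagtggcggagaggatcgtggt
MCM6 chr2:135876394-135876693 (minus strand): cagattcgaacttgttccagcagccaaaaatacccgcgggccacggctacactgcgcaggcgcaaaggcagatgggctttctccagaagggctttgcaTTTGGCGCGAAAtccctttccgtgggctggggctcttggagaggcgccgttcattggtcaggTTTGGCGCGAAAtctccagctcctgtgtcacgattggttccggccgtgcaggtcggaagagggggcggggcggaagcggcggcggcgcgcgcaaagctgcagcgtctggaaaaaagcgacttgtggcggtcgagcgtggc
CDC6 chr17:40287629-40287928 (plus strand): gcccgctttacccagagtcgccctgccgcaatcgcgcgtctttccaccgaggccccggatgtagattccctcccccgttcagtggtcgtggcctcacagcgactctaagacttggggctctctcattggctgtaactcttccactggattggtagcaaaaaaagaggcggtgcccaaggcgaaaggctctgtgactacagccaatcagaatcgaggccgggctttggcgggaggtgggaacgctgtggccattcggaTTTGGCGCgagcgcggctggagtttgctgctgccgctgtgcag

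In MCM6 the capitals mark 2 stretches in which the motif overlaps its own copy on the opposite strand, so that the window holds 4 matches, and MCM2 has 1 such stretch with 2 matches. The motif lies 7 to 14 bases after the start in CDC6 and 42 to 35 bases before it in E2F2. By role, it was found in 5 of 9 helicase genes, 4 of 8 polymerase and primase genes, 2 of 3 G1 to S regulators, 2 of 6 S-phase chromatin genes, 1 of 4 licensing genes and 1 of 5 strand-processing genes, and in none of the 5 clamp genes or 4 nucleotide genes with a window. The letters CCAAT, part of the NF-Y site, were present in 56.1% of the windows against 35.3% of those of tested protein-coding genes, and TTTGAA, searched as part of the cell cycle homology region, in 3.51% against 10.4%. A match describes these letters and is not evidence of binding, and the lack of a match does not show that an E2F site is absent.

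Total counts were 6856736 to 17861844 per library. A count of 0 allows up to 3 counts, which is 0.168 to 0.438 counts per 1000000 (CPM) at these depths and covers counting error only. CPM values of genes are scaled by TMM, which corrects for differences in library composition, and are given in the order of libraries 1 to 3. Library 3 of each QRICH1 KO group detected more genes than the other 10 libraries (15340 under DMSO and 14813 under Tm, against at most 14094). The targeted gene itself, QRICH1, stood at 22.7, 31.1 and 34.97 CPM under DMSO in WT and at 23.3, 24.1 and 24.8 CPM in QRICH1 KO. With Tm, QRICH1 stood at 30.8, 31.05 and 25.7 CPM in WT and at 26.8, 22.4 and 19.2 CPM in QRICH1 KO. Its level did not pass the test between genotypes under DMSO (adjusted p = 0.577) or Tm (adjusted p = 0.352, edgeR quasi-likelihood test with Benjamini-Hochberg adjustment). A guide can disrupt a protein without lowering its mRNA, so these levels do not check the labels. The epithelial markers EPCAM, KRT8 and KRT18 were abundant in every library, while the colon markers CDX1, CDX2 and CEACAM5 were at or near the detection limit. Of the 10 epithelial markers, 9 were tested, and KRT19 fell with Tm in both genotypes and VIL1 in WT. That is 2 of 9 in WT, where 11.1% of all tested genes fell, and 1 of 9 in QRICH1 KO (6.53%). The summed level of the 10, 64295 to 99031 CPM in WT DMSO and 58156 to 75128 in WT Tm, overlapped between treatments. Of 16 markers of non-epithelial cells, 4 passed the filter on low counts, of which 2 were called lower with Tm in WT and 0 in QRICH1 KO (11.1% and 6.53% of all tested genes). CD3E was at 0 throughout, and LYZ supplied nearly all of the summed level of the 16. That sum was 2301 to 2610 CPM under DMSO and 1836 to 1929 under Tm for WT, 2030 to 2655 and 2090 to 2359 for QRICH1 KO, and its part in the results was not tested.

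Tunicamycin lowered most of the replication genes in WT cells. Of the 53, 45 fell, 1 rose (CDC6) and 7 did not pass the test, against 11.1% of all tested genes that fell and 12.6% that rose. A gene is said to have risen or fallen where its adjusted p was under 0.05 in edgeR's quasi-likelihood test with Benjamini-Hochberg adjustment over all 11323 genes, fitted to all 12 libraries. Each SE printed is that of the log2 fold change, also beside a change given in folds. The median log2 fold change of the 53 was -0.87, and that of all tested genes was -0.02. In 46 genes all 3 WT Tm libraries lay below all 3 WT DMSO libraries, which was so for 18.5% of tested genes, and in 1 they lay wholly above (19.0%). At least a 2-fold fall was called in 20 of the 53, against 2.27% of tested genes. Summed over the list and without TMM scaling, the genes took 8251, 8317 and 7972 counts per 1000000 in WT DMSO and 3980, 3755 and 4176 in WT Tm, a 2.06-fold lower sum. Without TMM scaling the median log2 fold change of all tested genes was -0.21, and the sum is to be read against that shift. These are bulk samples, so that fewer cells in S phase and less of these RNAs in each cell cannot be told apart.

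The response in QRICH1 KO cells had the same direction and a smaller median. There 33 genes fell, 1 rose (CDC6) and 19 did not pass the test, against 6.53% and 9.09% of all tested genes. Leaving out QRICH1 KO DMSO library 1 or 2 lowered the share of all tested genes that fell to 3.82% or 3.38%, with 31 or 30 of the 53 falling. Leaving out Tm library 2 or 3 of that genotype gave 3.78% or 3.45%, with 33 or 29 of the 53. The median log2 fold change was -0.61, with -0.00387 over all tested genes, and in 43 genes the Tm libraries lay wholly below the DMSO libraries and in 1 wholly above (15.5% and 16.9% of tested genes). A call of at least a 2-fold fall was made in 7 genes (0.618% of tested genes). The summed counts per 1000000 were 8243, 8484 and 8387 under DMSO and 5106, 5223 and 4972 under Tm, a 1.64-fold lower sum. They are again without TMM scaling, where the median over all tested genes was -0.107, a smaller shift than in WT. All 33 genes that fell in QRICH1 KO also fell in WT, where 4.76% of tested genes fell in both. The 12 genes called lower in WT alone were ORC6, GINS1, GINS3, POLA1, RFC3, RFC5, RPA2, EXO1, E2F2, CCNE1, CCNE2 and CHAF1A. All of these except ORC6 had a log2 fold change below 0 in QRICH1 KO as well. A call in WT alone does not show a larger fall there: RPA2 had -0.37 in WT and -0.38 in QRICH1 KO. The 7 genes with no call in either genotype were CDT1, CDC45, GINS4, PRIM1, POLD2, RFC4 and RPA3.

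**Figure D1:**
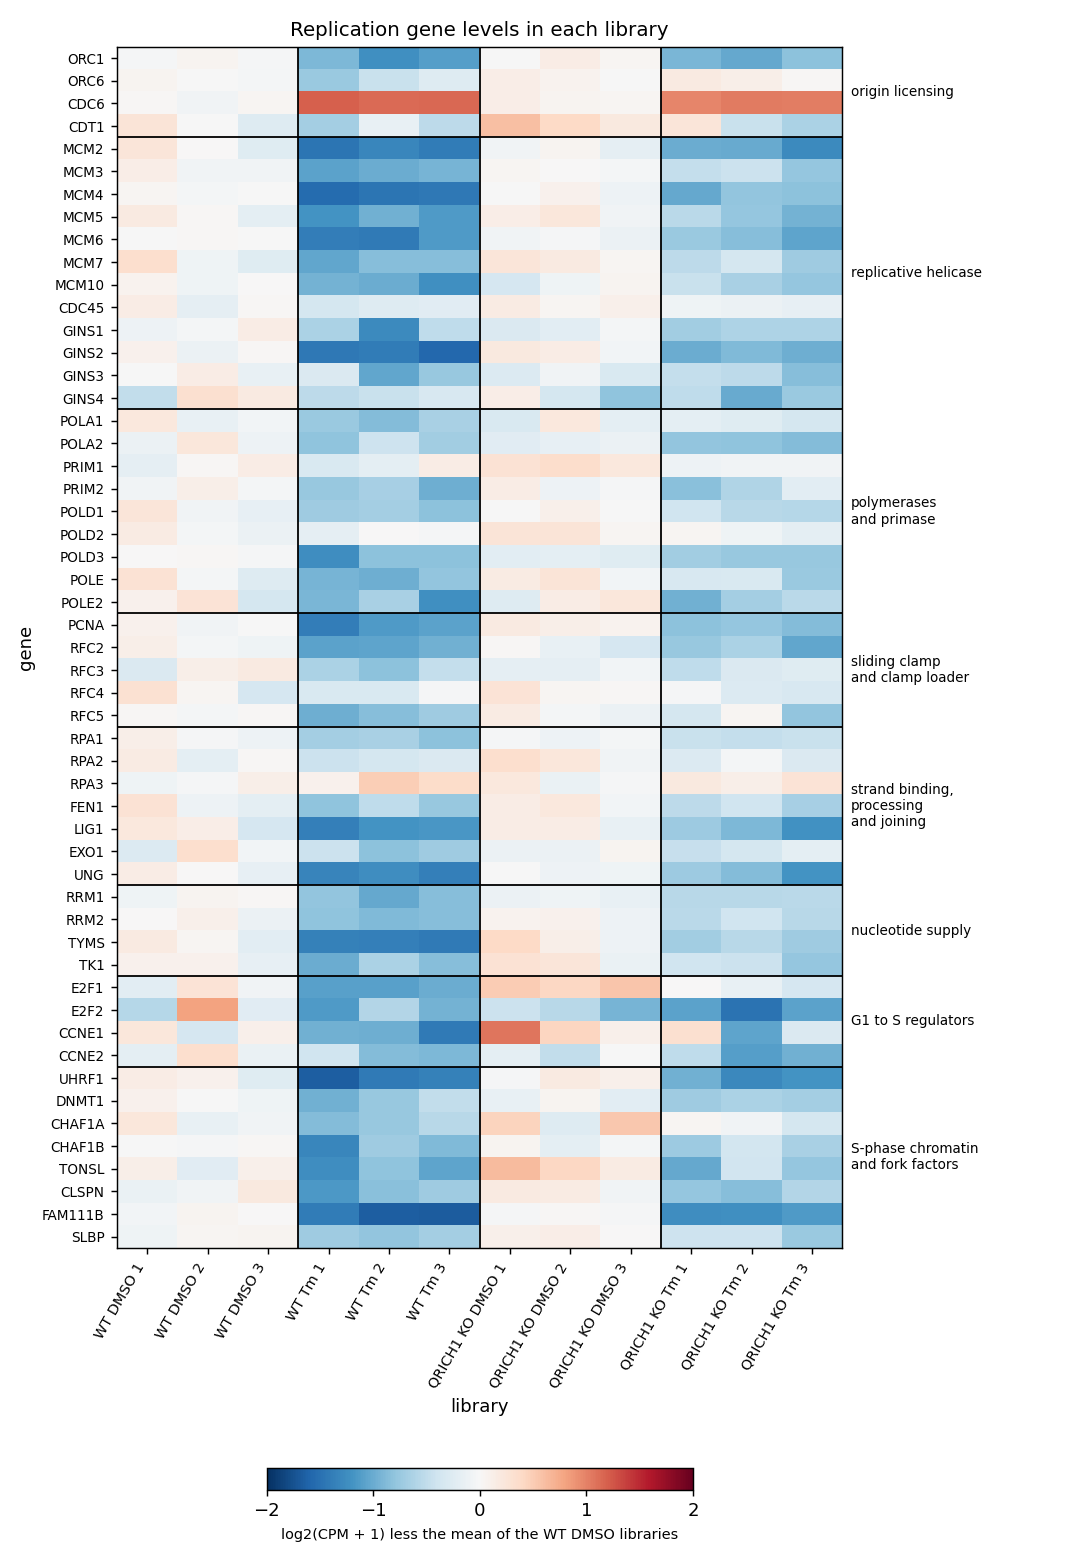
Levels of the 53 genes (rows, by role) in each of the 12 libraries (columns), coloured by log2(CPM + 1) less the mean of the 3 WT DMSO libraries, with blue lower and red higher. Most rows are blue in the WT Tm libraries and paler blue in the QRICH1 KO Tm libraries, and CDC6 is red in all 6 Tm libraries.

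Origin licensing was the role with genes called in both directions. Of its 4 genes, 2 fell and 1 rose in WT, with a median log2 fold change of -0.48, and 1 fell and 1 rose in QRICH1 KO, with a median of -0.32. For this and each later role, 11.1% of all tested genes fell in WT and 6.53% in QRICH1 KO. The shares that rose were 12.6% and 9.09%. Roles hold few genes, so a single call in a role cannot be told apart from such shares. CDC6 (ENSG00000094804.11, chr17:40287633-40304657 in hg38) encodes the ATPase that helps ORC to load the MCM ring and was the 1 gene of the list that rose. CDC6 stood at 106, 99.1 and 107 CPM in WT DMSO and at 238, 228 and 230.5 CPM in WT Tm. In QRICH1 KO, CDC6 stood at 114, 108 and 107 CPM under DMSO and at 205, 215 and 212 CPM under Tm. The Tm libraries lay above the DMSO libraries in both genotypes with a wide gap. The mean rose from 104 ± 4.12 to 232 ± 5.13 CPM (SD, n = 3) in WT, or by 1.16 on the log2 scale (SE 0.0934, adjusted p = 2.77e-08), and from 109.7 ± 3.596 to 211 ± 5.104 CPM in QRICH1 KO, or by 0.94 (SE 0.0926, adjusted p = 6.8e-07).

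ORC1 (ENSG00000085840.13, chr1:52372829-52404459), the largest subunit of the origin recognition complex, moved the other way. ORC1 stood at 34.3, 36.2 and 34.3 CPM in WT DMSO and at 18.3, 14.4 and 15.7 CPM in WT Tm. In QRICH1 KO, ORC1 stood at 34.7, 38.8 and 35.9 CPM under DMSO and at 18.2, 16.7 and 19.4 CPM under Tm. No Tm library reached the DMSO range in either genotype. ORC1 fell 2.17-fold in WT (adjusted p = 5.01e-06) and 2.01-fold in QRICH1 KO (adjusted p = 2.12e-05).

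ORC6 (ENSG00000091651.9, chr16:46689643-46698394), the smallest subunit of the same complex, differed between the genotypes under Tm. ORC6 stood at 38.8, 37.02 and 36.5 CPM in WT DMSO and at 21.9, 27.3 and 31.3 CPM in WT Tm. In QRICH1 KO, ORC6 stood at 41.1, 39.4 and 37.03 CPM under DMSO and at 42.8, 40.6 and 37.9 CPM under Tm. The WT Tm libraries lay below all 9 others, and the 2 QRICH1 KO groups overlapped. ORC6 fell by 0.49 on the log2 scale in WT (SE 0.131, adjusted p = 0.0109), and its log2 fold change in QRICH1 KO was 0.04 (adjusted p = 0.861). Without WT Tm library 1, the lowest, the WT difference no longer passed the test (log2 fold change -0.34, adjusted p = 0.0845). CDT1, which brings the MCM ring to the origin, stood at 13.9, 11.4 and 9.38 CPM in WT DMSO and 6.76, 10.2 and 7.602 in WT Tm, and at 17.7, 15.4 and 13.2 and 13.7, 8.08 and 7.001 in the QRICH1 KO groups. Its groups overlapped in both genotypes and it passed the test in neither (adjusted p = 0.185 and 0.0621).

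Most genes of the replicative helicase fell in both genotypes. In WT 10 of its 12 genes fell, with a median log2 fold change of -1.04, and in QRICH1 KO 8 fell, with a median of -0.68. GINS2 (ENSG00000131153.9, chr16:85676198-85690073), a subunit of the GINS complex, had the largest fall of this role in WT. GINS2 stood at 59.7, 51.8 and 56.7 CPM in WT DMSO and at 20.1, 20.6 and 18.2 CPM in WT Tm. In QRICH1 KO, GINS2 stood at 64.5, 62.2 and 53.9 CPM under DMSO and at 27.5, 29.97 and 28.1 CPM under Tm. Each genotype's Tm libraries were well below its DMSO libraries, and the QRICH1 KO Tm libraries lay above the WT Tm libraries. GINS2 fell by 1.51 on the log2 scale in WT (SE 0.1203, adjusted p = 2.6e-08) and by 1.08 in QRICH1 KO (SE 0.116, adjusted p = 2.23e-06).

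MCM4 (ENSG00000104738.17, chr8:47960185-47978160), a subunit of the MCM ring, was the second largest. MCM4 stood at 668, 637 and 649 CPM in WT DMSO and at 224, 236 and 240.2 CPM in WT Tm. In QRICH1 KO, MCM4 stood at 647, 691 and 605 CPM under DMSO and at 319, 376 and 369.7 CPM under Tm. The DMSO groups overlapped between genotypes, and the 4 groups otherwise kept apart. The mean went from 651 ± 16.1 to 233 ± 8.602 CPM in WT and from 648 ± 43.3 to 355 ± 30.9 CPM in QRICH1 KO (SD, n = 3). These are falls of 2.79-fold (SE 0.102, adjusted p = 3.18e-09) and 1.82-fold (SE 0.101, adjusted p = 6.01e-06).

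The other ring subunits fell in both genotypes. Their log2 fold changes in WT and then QRICH1 KO were -1.41 and -1.03 for MCM2, -1.001 and -0.57 for MCM3, -1.11 and -0.85 for MCM5, -1.32 and -0.81 for MCM6, and -0.94 and -0.68 for MCM7. MCM10, which helps to activate the assembled helicase, fell by 1.07 and 0.52 on the same scale, and its QRICH1 KO call was lost without QRICH1 KO DMSO library 3 (adjusted p = 0.0532), Tm library 2 (0.0503) or Tm library 3 (0.0659). MCM6, whose promoter window holds 4 matches to the E2F motif, stood at 142, 147 and 142 CPM in WT DMSO and 54.8, 53.2 and 65.2 in WT Tm, and at 136, 142 and 132 and 85.9, 79.4 and 68.6 in QRICH1 KO. Its Tm libraries did not overlap with any DMSO library, nor the WT Tm with the QRICH1 KO Tm libraries. MCM7 shares 392 exon bases with AP4M1, and this library type does not mark strand, so reads there cannot be assigned to 1 of the 2 genes. Of the 53 genes, 17 share exon bases with another coding gene, among them POLA2 (2012 bases), RRM2 (1077), PRIM1 (527) and POLD1 (426).

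The ring subunits form a complex with 1 copy of each protein, yet their values per kilobase of exon differed widely. Exon length here is the union of all annotated exons of a gene, 7.338 kb for MCM5 and 3.65 kb for MCM3. It can exceed the length of the transcripts present, so the order may depend in part on the annotation. Per kilobase of exon, the mean CPM in WT DMSO was 293 ± 62.9 for MCM7, 110 ± 8.83 for MCM3, 93.4 ± 2.30 for MCM4, 52.5 ± 8.91 for MCM2, 34.9 ± 0.618 for MCM6 and 27.0 ± 3.64 for MCM5 (SD, n = 3). The order of the means was the same in the other 3 groups. MCM6 and MCM5 were the closest pair, at 14.0 ± 1.59 and 12.5 ± 1.02 in WT Tm, where they did not differ beyond their spread.

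CDC45, which joins the MCM ring and GINS in the active helicase, had the smallest change of this role. CDC45 stood at 104, 83.1 and 95.5 CPM in WT DMSO and at 73.1, 78.2 and 79.8 CPM in WT Tm. In QRICH1 KO, CDC45 stood at 105, 96.6 and 100.3 CPM under DMSO and at 87.9, 86.8 and 83.8 CPM under Tm. Its Tm libraries lay below its DMSO libraries in both genotypes by a narrow gap, and it passed the test in neither (log2 fold change -0.29, adjusted p = 0.0579 in WT and -0.23, adjusted p = 0.164 in QRICH1 KO). The GINS subunits GINS1 and GINS3 fell in WT only by the test (-0.82 and -0.73 on the log2 scale). GINS3 lost its call without WT DMSO library 2 (adjusted p = 0.0891), WT Tm library 2 (0.108) or WT Tm library 3 (0.0662). GINS4 passed the test in neither genotype (adjusted p = 0.226 and 0.299).

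Among the 9 polymerase and primase genes, 7 fell in WT (median log2 fold change -0.80) and 6 in QRICH1 KO (median -0.54). POLE2, the second subunit of the leading-strand polymerase epsilon, had the largest change. POLE2 stood at 16.3, 18.6 and 11.7 CPM in WT DMSO and at 7.67, 9.43 and 5.93 CPM in WT Tm. In QRICH1 KO, POLE2 stood at 12.6, 17.1 and 18.02 CPM under DMSO and at 7.38, 9.13 and 10.2 CPM under Tm. All Tm libraries lay below the DMSO libraries of their genotype. POLE2 fell 1.99-fold in WT (SE 0.224, adjusted p = 0.00307) and 1.79-fold in QRICH1 KO (SE 0.217, adjusted p = 0.0131). The QRICH1 KO call was lost without QRICH1 KO DMSO library 2 (adjusted p = 0.0568) or QRICH1 KO Tm library 1 (adjusted p = 0.0615).

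POLD3, a subunit of the lagging-strand polymerase delta, came next. POLD3 stood at 52.5, 53.6 and 51.4 CPM in WT DMSO and at 21.6, 29.3 and 29.3 CPM in WT Tm. In QRICH1 KO, POLD3 stood at 45.3, 45.8 and 44.2 CPM under DMSO and at 32.05, 30.7 and 30.7 CPM under Tm. Here, too, the Tm and DMSO libraries did not overlap. POLD3 fell 1.97-fold in WT (SE 0.125, adjusted p = 1.21e-05) and 1.45-fold in QRICH1 KO (SE 0.123, adjusted p = 0.00587). POLD2, another subunit of the same enzyme, did not follow it. POLD2 stood at 249.6, 217 and 205 CPM in WT DMSO and at 198, 223 and 219 CPM in WT Tm. In QRICH1 KO, POLD2 stood at 268, 266 and 230.3 CPM under DMSO and at 229, 209.6 and 194 CPM under Tm. Its Tm and DMSO libraries overlapped in WT, and it passed the test in neither genotype (log2 fold change -0.07 and -0.27, adjusted p = 0.718 and 0.109). POLA1, the catalytic subunit of polymerase alpha, fell by 0.80 on the log2 scale in WT (adjusted p = 0.00187) and had a log2 fold change of -0.19 in QRICH1 KO (adjusted p = 0.471). POLD1 and POLE, the catalytic subunits of polymerases delta and epsilon, fell in both genotypes (-0.75 and -0.93 in WT, -0.54 and -0.57 in QRICH1 KO), as did POLA2, a subunit of polymerase alpha (-0.73 and -0.76). In QRICH1 KO the POLE call was lost without DMSO library 2 (adjusted p = 0.0756) or Tm library 3 (0.08), and the POLA2 call without Tm library 3 (0.0559). In WT the POLA2 call was lost without DMSO library 2 (0.0807) or Tm library 1 (0.0758). Of the primase subunits, PRIM2 fell in both genotypes (-0.83 and -0.57), while PRIM1 passed the test in neither (-0.15 and -0.42). The PRIM2 call in QRICH1 KO was lost without QRICH1 KO DMSO library 1 (adjusted p = 0.101) or Tm library 1 (0.122) or 2 (0.0946).

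PCNA (ENSG00000132646.11, chr20:5114953-5126626), the ring that holds polymerases on DNA and a usual marker of S phase, fell in both genotypes. PCNA stood at 481, 429 and 451 CPM in WT DMSO and at 173, 206 and 215 CPM in WT Tm. In QRICH1 KO, PCNA stood at 513, 493 and 475 CPM under DMSO and at 257, 265 and 249 CPM under Tm. The DMSO groups stood at more than 400 CPM and the Tm groups below 300 CPM in every library. The fall was 2.29-fold in WT (SE 0.105, adjusted p = 8.69e-08) and 1.92-fold in QRICH1 KO (SE 0.104, adjusted p = 3.06e-06). PCNA, RPA2 and RRM2 have 3 named pseudogenes each, and TYMS and UNG have 2 each. How reads that map to several places were counted is not given in the sources used here.

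Of the 4 clamp loader genes listed, 3 fell in WT and 1 in QRICH1 KO (11.1% and 6.53% of all tested genes), and with PCNA the median log2 fold change was -0.87 and -0.35. RFC2 had the largest change of these. RFC2 stood at 113, 101 and 98 CPM in WT DMSO and at 48.9, 49.4 and 52.8 CPM in WT Tm. In QRICH1 KO, RFC2 stood at 106, 93.4 and 81.8 CPM under DMSO and at 61.2, 66.4 and 50.04 CPM under Tm. Its Tm libraries were below the DMSO libraries in both genotypes, with falls of 2.06-fold (SE 0.127, adjusted p = 6.63e-06) and 1.58-fold (SE 0.125, adjusted p = 0.00123). RFC3 and RFC5 fell by 0.67 and 0.87 on the log2 scale in WT, and had no call in QRICH1 KO (-0.21 and -0.35). RFC4 had the smallest change of the role in WT, while in QRICH1 KO RFC3 did. RFC4 stood at 42.7, 35.3 and 27.2 CPM in WT DMSO and at 27.9, 27.7 and 34.1 CPM in WT Tm. In QRICH1 KO, RFC4 stood at 42.1, 35.6 and 35.2 CPM under DMSO and at 33.9, 28.4 and 27.4 CPM under Tm. The groups overlapped in WT, and it passed the test in neither genotype (adjusted p = 0.331 and 0.173).

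Genes that bind, trim or join the new strands fell in 6 of 7 cases in WT (median -0.70) and in 4 of 7 in QRICH1 KO (median -0.40). UNG, the glycosylase that removes uracil from new DNA, changed most in WT, and LIG1 in QRICH1 KO. UNG stood at 199.9, 181 and 159 CPM in WT DMSO and at 71.5, 74.9 and 69.02 CPM in WT Tm. In QRICH1 KO, UNG stood at 179, 167 and 169 CPM under DMSO and at 108, 98.2 and 77.97 CPM under Tm. The WT Tm libraries were the lowest of the 4 groups, and no Tm library reached its DMSO range. UNG fell 2.504-fold in WT (SE 0.125, adjusted p = 2.34e-07) and 1.81-fold in QRICH1 KO (SE 0.123, adjusted p = 6.97e-05).

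LIG1, the ligase that joins Okazaki fragments, followed. LIG1 stood at 188, 178 and 128 CPM in WT DMSO and at 62.5, 70.3 and 72.1 CPM in WT Tm. In QRICH1 KO, LIG1 stood at 180.1, 181 and 147 CPM under DMSO and at 97.3, 86.6 and 69.8 CPM under Tm. Its DMSO libraries spread more widely than those of UNG but stayed above every Tm library. LIG1 fell 2.41-fold in WT (SE 0.152, adjusted p = 5.18e-06) and 2.002-fold in QRICH1 KO (SE 0.149, adjusted p = 0.000116). The flap nuclease FEN1 and the largest subunit of the single-strand binding protein, RPA1, fell in both genotypes (-0.70 and -0.72 on the log2 scale in WT). RPA2 fell in WT by 0.37 (adjusted p = 0.0455), near the threshold, and the call was lost on leaving out any of 7 single libraries, with adjusted p-values up to 0.168 without WT DMSO library 1. In QRICH1 KO the log2 fold change of RPA2 was about the same, -0.38, and just missed a call (adjusted p = 0.0529). EXO1, an exonuclease, fell in WT by 0.70 and lost its call without WT DMSO library 2 (adjusted p = 0.0512). RPA3, the small subunit, had the smallest change of the role. RPA3 stood at 23.9, 24.9 and 27.7 CPM in WT DMSO and at 27.2, 36.4 and 33.3 CPM in WT Tm. In QRICH1 KO, RPA3 stood at 29.7, 23.1 and 25.1 CPM under DMSO and at 29.2, 27.6 and 30.9 CPM under Tm. Its groups overlapped in both genotypes, with log2 fold changes of 0.34 (adjusted p = 0.0968) and 0.17 (adjusted p = 0.464).

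All 4 genes of nucleotide supply fell in both genotypes, with a median log2 fold change of -0.87 in WT and -0.59 in QRICH1 KO. TYMS, thymidylate synthase, had the largest change. TYMS stood at 29.8, 27.04 and 22.5 CPM in WT DMSO and at 9.73, 9.59 and 9.27 CPM in WT Tm. In QRICH1 KO, TYMS stood at 34.9, 28.7 and 24.5 CPM under DMSO and at 15.9, 17.7 and 15.6 CPM under Tm. The WT Tm libraries agreed to within 1 CPM and lay below all 9 others. TYMS fell 2.76-fold in WT (SE 0.165, adjusted p = 2.46e-06) and 1.79-fold in QRICH1 KO (SE 0.156, adjusted p = 0.001). It shares 967 exon bases with ENOSF1 on the opposite strand, so its counts may hold reads of that gene.

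RRM1, the large subunit of ribonucleotide reductase, came next. RRM1 stood at 303, 335 and 328 CPM in WT DMSO and at 185, 157 and 179 CPM in WT Tm. In QRICH1 KO, RRM1 stood at 296, 303 and 289 CPM under DMSO and at 219, 219 and 222 CPM under Tm. The groups were apart, with the WT Tm libraries lowest. RRM1 fell 1.86-fold in WT (SE 0.0979, adjusted p = 1.75e-06) and 1.34-fold in QRICH1 KO (SE 0.09696, adjusted p = 0.00535). Its partner RRM2 fell by 0.85 and 0.52 on the log2 scale. TK1, the thymidine kinase of the salvage pathway, had the smallest change of the role in WT, while in QRICH1 KO RRM1 did. TK1 stood at 512, 511 and 428 CPM in WT DMSO and at 242, 310.2 and 267 CPM in WT Tm. In QRICH1 KO, TK1 stood at 589.6, 572 and 440.4 CPM under DMSO and at 367, 358 and 282 CPM under Tm. Even so its Tm libraries were all below its DMSO libraries, with falls of 1.77-fold (SE 0.139, adjusted p = 0.000236) and 1.59-fold (SE 0.138, adjusted p = 0.00262).

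The 4 regulators of entry into S phase all fell in WT, with a median log2 fold change of -1.34, and 1 of them, E2F1, fell in QRICH1 KO (median of the role -0.82). Of all tested genes 11.1% and 6.53% fell. They took the fewest counts of the 8 roles, and their errors were among the largest. E2F1 (ENSG00000101412.13, chr20:33675683-33686404) activates the G1 to S genes. E2F1 stood at 12.5, 17.9 and 13.8 CPM in WT DMSO and at 6.35, 6.34 and 6.84 CPM in WT Tm. In QRICH1 KO, E2F1 stood at 21.1, 19.8 and 21.96 CPM under DMSO and at 14.8, 13 and 11.3 CPM under Tm. The WT Tm libraries lay below all others, and the QRICH1 KO DMSO libraries above all others. E2F1 fell 2.29-fold in WT (SE 0.179, adjusted p = 6.99e-05) and 1.61-fold in QRICH1 KO (SE 0.165, adjusted p = 0.00796). The latter call was lost without library 3 of both QRICH1 KO groups (log2 fold change -0.56, adjusted p = 0.0947).

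E2F2, a second activator, was near the detection limit. E2F2 stood at 1.09, 4.38 and 1.64 CPM in WT DMSO and at 0.412, 1.06 and 0.608 CPM in WT Tm. In QRICH1 KO, E2F2 stood at 1.3, 1.11 and 0.626 CPM under DMSO and at 0.476, 0.117 and 0.477 CPM under Tm. All WT Tm libraries were below the WT DMSO libraries, of which library 2 stood well above the other 2. E2F2 fell by 1.80 on the log2 scale in WT (SE 0.585, adjusted p = 0.0322), and its log2 fold change in QRICH1 KO was -1.40 (adjusted p = 0.171). Without WT DMSO library 2 the WT change was -0.98, adjusted p = 0.326. It also lost its call without WT Tm library 1 (adjusted p = 0.143) or WT Tm library 3 (adjusted p = 0.0919).

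CCNE1, cyclin E1, which activates CDK2 at the start of S phase, also stood at low levels. CCNE1 stood at 5.44, 3.35 and 4.91 CPM in WT DMSO and at 1.81, 1.79 and 1.06 CPM in WT Tm. In QRICH1 KO, CCNE1 stood at 10.6, 6.38 and 4.88 CPM under DMSO and at 5.87, 1.64 and 3.501 CPM under Tm. The WT groups did not overlap and the QRICH1 KO groups did. CCNE1 fell by 1.47 on the log2 scale in WT (SE 0.428, adjusted p = 0.0173), and its log2 fold change in QRICH1 KO was -0.95 (adjusted p = 0.0896). Without WT Tm library 3 it was -1.31, adjusted p = 0.0654 in WT. CCNE2, cyclin E2, had the smallest change of the role in WT. CCNE2 stood at 10.1, 14.9 and 10.5 CPM in WT DMSO and at 8.58, 5.93 and 5.78 CPM in WT Tm. In QRICH1 KO, CCNE2 stood at 10.0, 8.04 and 11.6 CPM under DMSO and at 7.85, 4.92 and 5.49 CPM under Tm. Its Tm libraries lay below the DMSO libraries in both genotypes, by a small gap. CCNE2 fell by 0.80 in WT (SE 0.241, adjusted p = 0.0205) and had no call in QRICH1 KO (adjusted p = 0.0587). Leaving out WT DMSO library 2, WT Tm library 2 or WT Tm library 3 removed the WT call (adjusted p = 0.138, 0.0852 and 0.0769). CCNE2 shares 1629 exon bases with INTS8.

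All 8 S-phase chromatin and fork genes fell in WT (median -0.99) and 7 of them in QRICH1 KO (median -0.73). FAM111B (ENSG00000189057.11, chr11:59107185-59127410), a protease gene of S phase, had the largest fall of the whole list in WT after E2F2. FAM111B stood at 37.7, 40.6 and 39.5 CPM in WT DMSO and at 14.4, 11.8 and 11.7 CPM in WT Tm. In QRICH1 KO, FAM111B stood at 38.8, 39.9 and 38.8 CPM under DMSO and at 16.02, 16.2 and 17.3 CPM under Tm. The DMSO libraries of both genotypes stood within 4 CPM of each other, and the Tm libraries were far below. FAM111B fell 3.102-fold in WT (SE 0.129, adjusted p = 2.21e-08) and 2.37-fold in QRICH1 KO (SE 0.125, adjusted p = 8.45e-07).

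UHRF1 (ENSG00000276043.5, chr19:4903080-4962154) recognises hemimethylated DNA behind the fork and recruits the methyltransferase DNMT1. UHRF1 stood at 123, 119 and 94.4 CPM in WT DMSO and at 34.9, 41.2 and 42.9 CPM in WT Tm. In QRICH1 KO, UHRF1 stood at 110.0, 127 and 119 CPM under DMSO and at 56.7, 45.2 and 48.3 CPM under Tm. Both Tm groups lay far below the DMSO groups, and the DMSO groups overlapped between genotypes. UHRF1 fell 2.83-fold in WT (SE 0.133, adjusted p = 9.81e-08) and 2.37-fold in QRICH1 KO (SE 0.1301, adjusted p = 1.57e-06). DNMT1 itself fell by 0.74 and 0.59 on the log2 scale. The checkpoint adaptor CLSPN fell by 0.95 and 0.86, and TONSL, which acts at damaged forks, by 1.05 and 1.15.

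CHAF1A and CHAF1B, subunits of the chromatin assembly factor that places histones on new DNA, had log2 fold changes of -0.82 and -1.03 in WT, both called. In QRICH1 KO CHAF1B fell by 0.57, a call that was lost on leaving out any single QRICH1 KO library other than Tm library 2 (adjusted p up to 0.124), and CHAF1A had no call (adjusted p = 0.201). CHAF1A lost its WT call without WT DMSO library 1 (adjusted p = 0.0593), WT Tm library 1 (0.0752) or WT Tm library 2 (0.0506). SLBP, which binds the stem-loop of histone mRNAs, had the smallest change of the role in WT, while in QRICH1 KO CHAF1A did. SLBP stood at 183, 201 and 202 CPM in WT DMSO and at 119, 113 and 121 CPM in WT Tm. In QRICH1 KO, SLBP stood at 210.3, 214 and 197 CPM under DMSO and at 146, 145 and 116 CPM under Tm. Its Tm libraries lay below the DMSO libraries in both genotypes. SLBP fell 1.66-fold in WT (SE 0.108, adjusted p = 5.88e-05) and 1.53-fold in QRICH1 KO (SE 0.107, adjusted p = 0.000656).

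**Figure D2:**
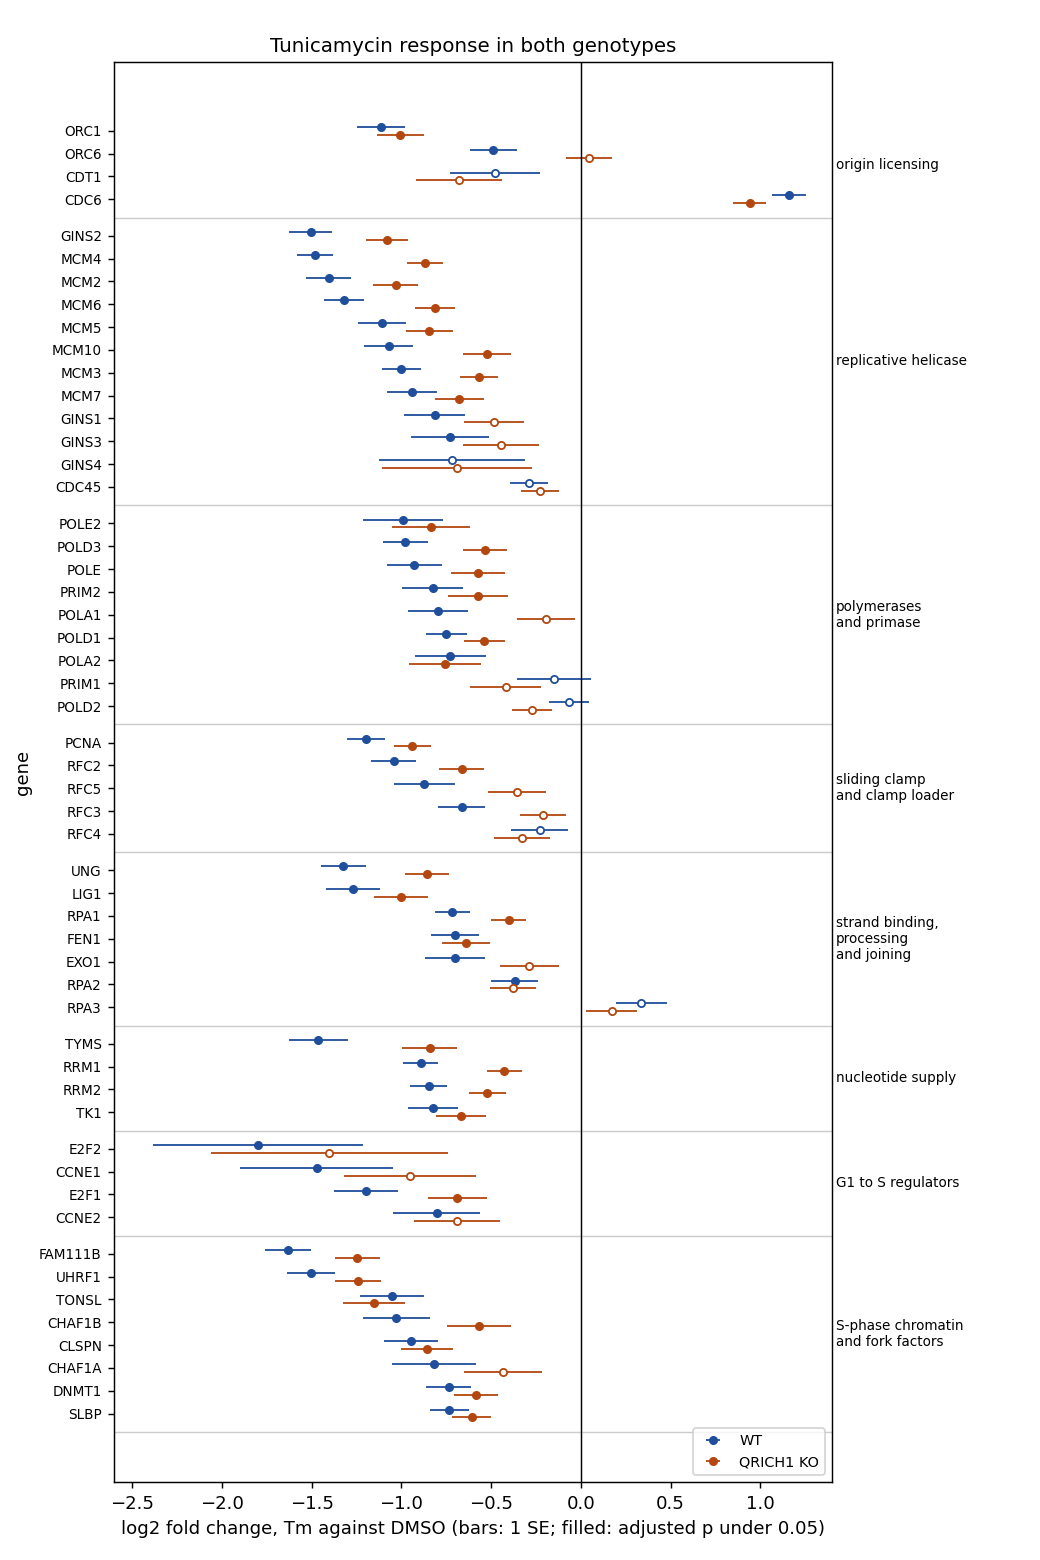
Log2 fold change of Tm against DMSO for each of the 53 genes in WT (blue) and QRICH1 KO (orange), by role, with bars of 1 SE and filled points for an adjusted p under 0.05. CDC6 alone is filled on the right of 0, and most WT points lie further left than those of QRICH1 KO.

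The fall was described against the E2F motif. The 15 genes with the motif in their promoter window had a median log2 fold change of -0.94 in WT, 14 of them falling, and the 29 genes with a window without it had a median of -0.83, 24 of them falling. In QRICH1 KO the medians were -0.68 and -0.57. The 1 gene with the motif that did not fall was CDC6. Only the letters given above were searched, so the genes without a match can hold other forms of an E2F site.

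Under Tm part of the replication genes stood higher in QRICH1 KO than in WT. The test called 5 of the 53 higher and none lower, against 0.406% and 0.76% of all tested genes (1.17% in either direction), and the median log2 difference was 0.30 (0.01 over all tested genes). In 25 genes all 3 QRICH1 KO Tm libraries lay above all 3 WT Tm libraries, which was so for 9.41% of tested genes, and in 1 gene, CDC6, they lay below (9.06%). At an unadjusted p under 0.05 there were 26 genes, against 13.4% of tested genes. This comparison uses the same Tm libraries as the Tm responses, so it is not separate support for them.

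The called genes were E2F1, MCM4, TYMS, ORC6 and GINS2, whose libraries are given with their roles. E2F1 differed most, at 6.51 ± 0.286 CPM in WT Tm and 13.02 ± 1.73 CPM in QRICH1 KO Tm (SD, n = 3), which is 2.01-fold higher (SE 0.181, adjusted p = 0.00828). TYMS was 1.71-fold higher (SE 0.167, adjusted p = 0.0265), MCM4 1.52-fold (SE 0.101, adjusted p = 0.00494), ORC6 1.51-fold (SE 0.131, adjusted p = 0.0286) and GINS2 1.45-fold (SE 0.121, adjusted p = 0.0402). The groups did not overlap in any of the 5. MCM3 and MCM6 were the closest ring subunits to a call (adjusted p = 0.0566 and 0.0728), and CDC6 had a log2 difference of -0.14 (adjusted p = 0.557).

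The number of calls changed when single libraries were left out. It was 1 (MCM4) without WT Tm library 1 and likewise without QRICH1 KO Tm library 1, and 2 (MCM4 and E2F1) without WT Tm library 2 or QRICH1 KO Tm library 2. It was 3 without WT Tm library 3, WT DMSO library 2 or QRICH1 KO DMSO library 2. With library 3 of both QRICH1 KO groups left out, which detected more genes, it was 8. MCM4 kept its call under all 20 alternative settings. The other 4 did not: E2F1 lost its call in 2 of the 20 (adjusted p up to 0.0559), TYMS in 6 (up to 0.128), ORC6 in 8 (up to 0.177) and GINS2 in 11 (up to 0.159). Leaving out 1 Tm library also reduced the share of all tested genes called lower in this comparison (0.302% to 0.422%, main fit 0.76%). The median log2 difference of the 53 was then 0.24 to 0.34, against 0.30 with all libraries.

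**Figure D3:**
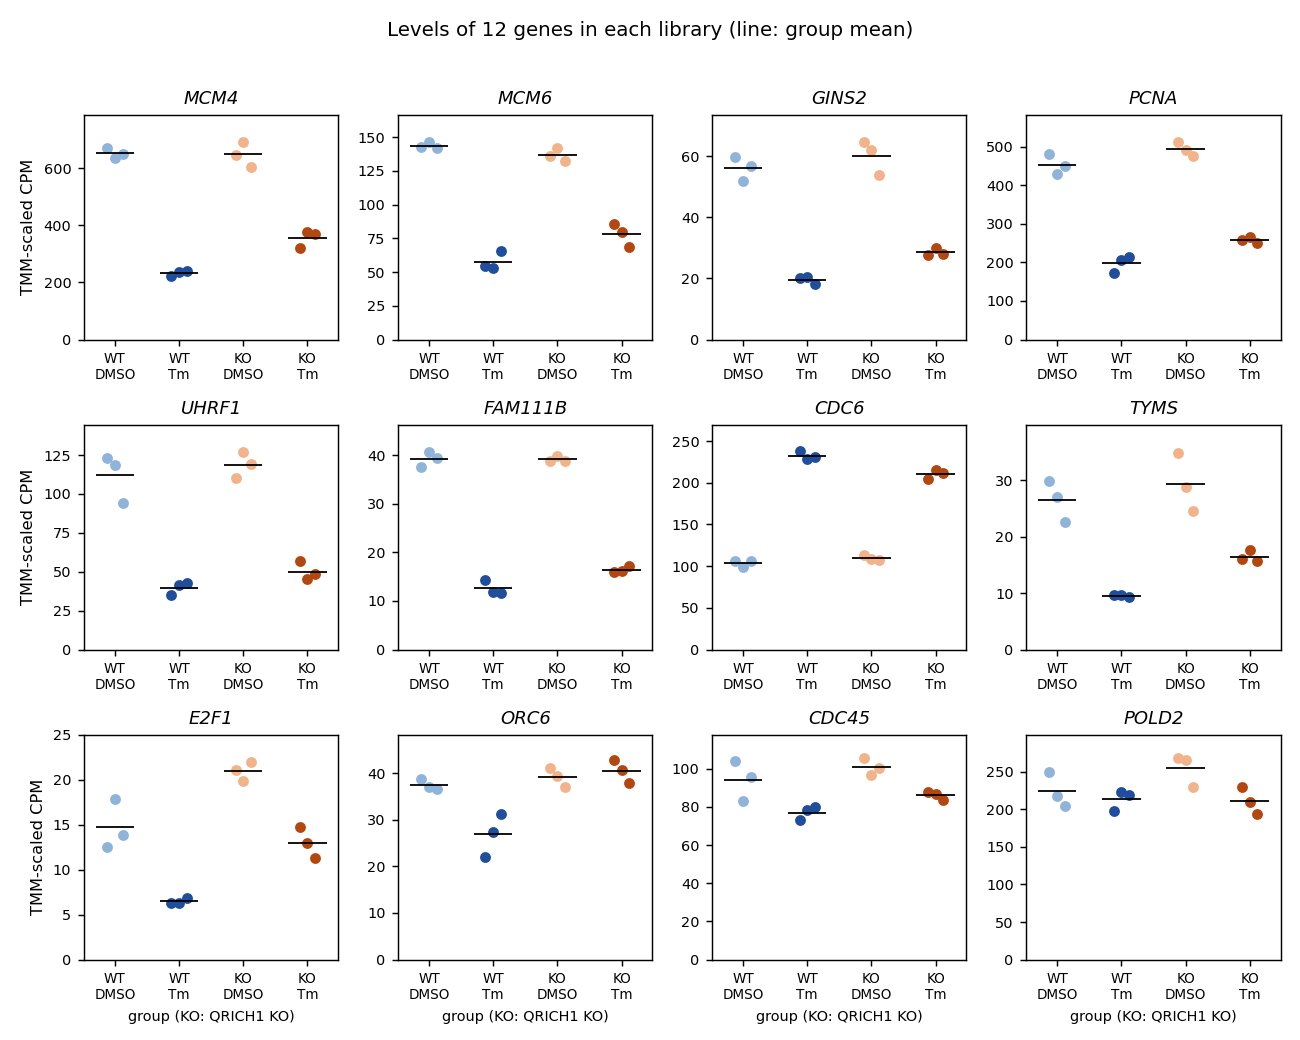
TMM-scaled CPM of 12 genes in each of the 12 libraries, with blue points for WT, orange points for QRICH1 KO, darker shades for Tm and a line at each group mean. MCM4, GINS2, TYMS, E2F1 and ORC6 separate the Tm groups of the genotypes, CDC6 rises with Tm, and the POLD2 groups lie close together.

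Without Tm no replication gene was called between the genotypes. Of the 53 genes, 0 were called by edgeR's quasi-likelihood test, and 0 by DESeq2, between QRICH1 KO and WT under DMSO (of the tested genes 0.0795% were lower and 0.0177% higher, 0.0971% in all), and 3 had an unadjusted p under 0.05 (9.07% of tested genes). The median log2 difference was 0.02. The QRICH1 KO libraries lay wholly above the WT libraries for CDC6, PRIM1, E2F1 and TONSL (7.4% of tested genes did so) and wholly below for MCM6, POLD3 and RRM1 (6.09%). E2F1 was at 14.8 ± 2.81 CPM in WT and 20.97 ± 1.08 CPM in QRICH1 KO (log2 difference 0.50, SE 0.163, adjusted p = 0.352). MCM4 was at 651 ± 16.1 and 648 ± 43.3 CPM (log2 difference -0.01, adjusted p = 0.986).

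**Figure D4:**
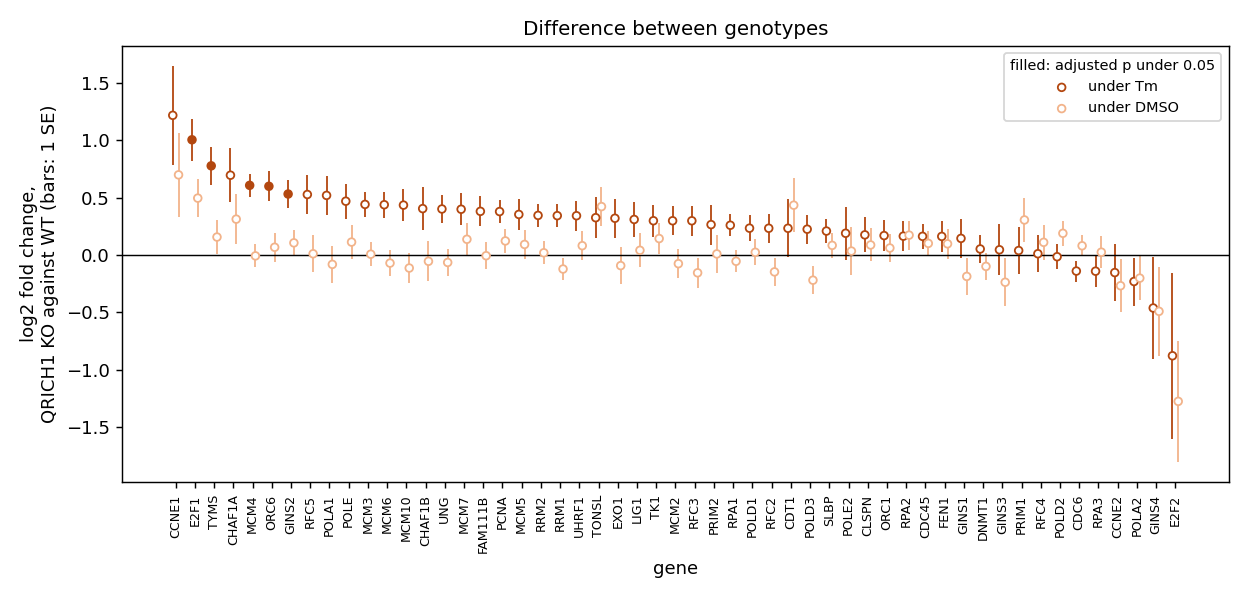
Log2 fold change of QRICH1 KO against WT for each of the 53 genes under Tm (dark) and under DMSO (light), ordered by the value under Tm, with bars of 1 SE and filled points for an adjusted p under 0.05. The 5 filled points are all under Tm and above 0.

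Whether the Tm response itself differed between the genotypes was tested as an interaction, the response in QRICH1 KO less that in WT. No gene of the 53 passed, and 0.0% of the tested genes did, with edgeR's quasi-likelihood test. The DESeq2 Wald test called 1 of the 53, MCM4 (adjusted p = 0.0102). At an unadjusted p under 0.05 edgeR gave 18 of the 53, against 6.84% of tested genes. The interaction was above 0, meaning a smaller fall or a larger rise in QRICH1 KO, in 44 of the 53 genes (51.2% of tested genes), with a median of 0.28. MCM4 had the smallest adjusted p (0.206), with an interaction of 0.61 (SE 0.142), and over the 18 edgeR alternatives its adjusted p was 0.0883 to 0.524. RRM1 (0.47, adjusted p = 0.368), MCM6 (0.51, adjusted p = 0.405) and ORC6 (0.53, adjusted p = 0.521) came next.

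Other genes of replication, outside the 53, fell in part. Of 46 such genes, 45 were tested, and in WT 19 fell and 1 rose, with a median log2 fold change of -0.48, against 11.1% and 12.6% of all tested genes. In QRICH1 KO 13 fell and 1 rose, with a median of -0.30, against 6.53% and 9.09%. Whether these shares differ from those of the 53 genes was not tested. The 4 falls with the smallest adjusted p in WT were SKP2, a subunit of the ubiquitin ligase that degrades p27 (-1.36, SE 0.154, adjusted p = 2.74e-06), DUT, which keeps uracil out of DNA (-1.13, SE 0.139, adjusted p = 6.86e-06), the histone chaperone ASF1B (-1.08, SE 0.133, adjusted p = 7.72e-06) and the alternative clamp loader subunit DSCC1 (-0.90, SE 0.1198, adjusted p = 1.8e-05). In QRICH1 KO they were DSCC1 (-0.78, adjusted p = 0.000142), SKP2 (-0.92, 0.000271), the ubiquitin ligase subunit DTL (-0.76, 0.000824) and ASF1B (-0.71, 0.000954). TOP1, which relieves the twist ahead of the fork and of transcription, rose by 0.90 in WT (SE 0.0997, adjusted p = 1.9e-06) and by 0.46 in QRICH1 KO (SE 0.0989, adjusted p = 0.00337), and was lower in QRICH1 KO than in WT under Tm (-0.46, adjusted p = 0.0263).

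Genes of G2 and mitosis, the next phases of the cycle, also fell in part. Of 35, 22 fell in WT (median -0.47, against 11.1% of all tested genes) and 16 in QRICH1 KO (median -0.35, against 6.53%). The other 13 and 19 had no call. Among these were the centromere histone CENPA (0.44 in WT, adjusted p = 0.389) and UBE2C, which encodes a ubiquitin-conjugating enzyme of mitotic exit (0.31, adjusted p = 0.0809). MKI67, the proliferation marker, had log2 fold changes of -0.72 (adjusted p = 0.000132) and -0.57 (adjusted p = 0.00184), and cyclin A2, CCNA2, -0.72 (adjusted p = 5.58e-05) and -0.54 (adjusted p = 0.00141). These 4 genes were chosen after their values were seen.

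**Figure D5:**
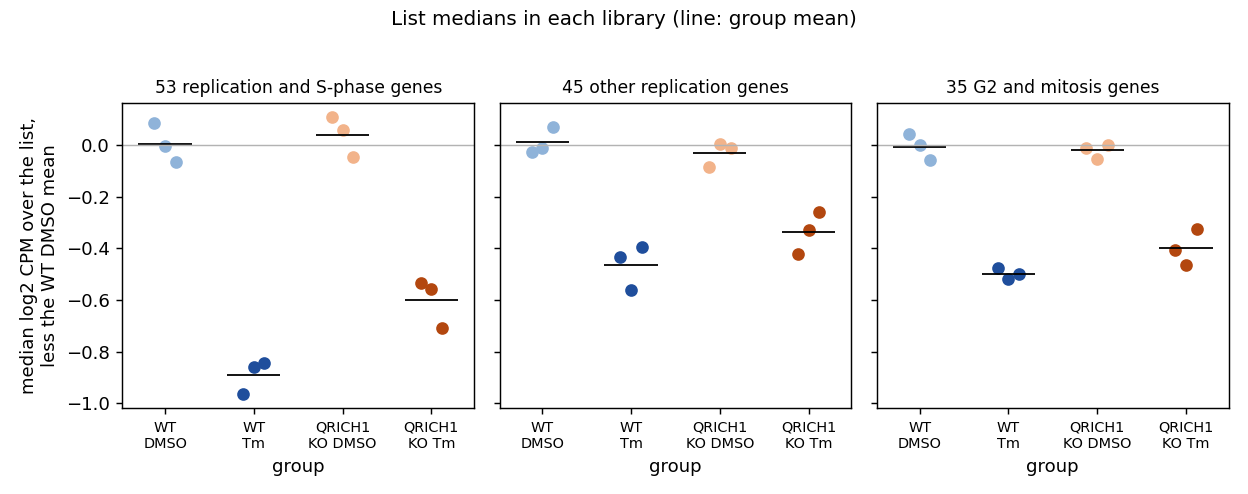
Median log2 CPM, less the mean of the WT DMSO libraries, over the 53 replication and S-phase genes, 45 other replication genes and 35 G2 and mitosis genes in each library, with a line at each group mean. The 53 genes are lowest in WT Tm, and the WT Tm and QRICH1 KO Tm libraries keep apart in that panel. They also keep apart in the G2 and mitosis panel, by a narrow gap (-0.477 in WT Tm library 1 and -0.464 in QRICH1 KO Tm library 2). Among the other replication genes they overlap.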

How the data were processed

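RNA from 12 libraries (4 groups of 3) was sequenced on an Illumina NextSeq after a modified Smart-seq2 and Nextera XT preparation, per the labels' protocols, a chemistry that marks neither strand nor single molecules. The authors deposited whole-number read counts per gene, not normalized. Trimmomatic, STAR, DESeq2 and hg38 are named in the submitters' processing notes, and the sources used here do not name the counting tool or annotation. Positions and exon lengths were taken from GENCODE 29, and 38 of the 53 genes had another ID version there.

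Genes were kept by filterByExpr (minimum count 10), and TMM-scaled counts were fitted with 4 group means in edgeR 4.0.16 (R 4.3.3; common biological coefficient of variation 0.1545). SE was taken from the F statistic. The scripts were tested on simulated data. Alternatives were other scalings, DESeq2 1.42.0, other filters, a replicate block, fewer groups and libraries left out in turn. Within groups, libraries differed by 8.64 to 35.8 chi-square per degree of freedom, so no library was a copy. Of each role, the 2 called genes with the largest change in WT and the gene with the smallest change were named with values, as was each gene called higher or called between genotypes. The genes and lists were chosen with earlier results of these data known. P-values measure only the spread between libraries, which may be partly technical.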

Additional observations from a re-analysis of the deposited data

How the results depend on the processing

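The counts of falls were stable in direction under all alternatives run: 40 to 48 genes fell in WT and 29 to 38 in QRICH1 KO. No gene called in the main fit changed sign, and the signs of genes without a call were not compared. With library totals alone as the scaling, the median over all tested genes moved to -0.21 in WT and -0.107 in QRICH1 KO, and the medians of the 53 genes were -1.05 and -0.71, which are to be read against that shift, as are the 19.8% and 10.8% of all tested genes that then fell. Genes higher in QRICH1 KO under Tm numbered 8 with library totals alone, 9 with DESeq2, 3 with only the libraries of the groups compared and 8 without library 3 of both QRICH1 KO groups. Leaving out 1 library at a time gave 1 to 6. With library totals alone the median of this comparison over all tested genes moved to 0.07, from 0.01, and the 8 are to be read against that shift. The shares of all tested genes called higher under these alternatives are not given here. Leave-one-out gave 1 to 2 genes that rose in WT (RPA3 was added without WT Tm library 1), and a median interaction of 0.255 to 0.367, the highest without WT DMSO library 3. The interaction called 1 gene (MCM4) with DESeq2. The cause of these differences was not tested.

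Between DMSO and Tm libraries of the same number, deviations correlated at 0.213, 0.00214 and 0.265 for QRICH1 KO libraries 1 to 3 and at -0.139, -0.0511 and 0.0192 for WT. Within QRICH1 KO, DMSO and Tm libraries of unlike number correlated at -0.239 to 0.0356. Libraries 1 and 3 of that genotype thus deviated with their own number, but not every pair did. Across genotypes, libraries of unlike number reached 0.226 (WT Tm library 2 with QRICH1 KO DMSO library 1). The numbers were therefore not taken as pairs. With the replicate block, 45 genes fell and 1 rose in WT, 36 fell and 1 rose in QRICH1 KO, 5 were higher in QRICH1 KO under Tm and 0 passed the interaction test in edgeR, and the medians were -0.88, -0.61, 0.29 and 0.30. Depth limits the low genes: E2F2 had a count of 1 in its lowest library.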

Other observations

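Inhibitors of the cyclin-dependent kinases were measured beside the replication genes, in a list of 7 of which 6 were tested. CDKN1A, which encodes p21, an inhibitor of S-phase entry and a partner of PCNA, stood at 2.04, 3.59 and 4.46 CPM in WT DMSO and 19.5, 13 and 12.5 in WT Tm. In QRICH1 KO, CDKN1A stood at 5.77, 3.396 and 5.63 CPM under DMSO and 13.7, 17.7 and 16.9 under Tm. No Tm library overlapped with a DMSO library, and CDKN1A rose by 2.11 on the log2 scale in WT (SE 0.272, adjusted p = 1.31e-05) and by 1.69 in QRICH1 KO (SE 0.255, adjusted p = 0.000126, edgeR quasi-likelihood test with Benjamini-Hochberg adjustment). CDKN2B, which encodes p15, an inhibitor of the cyclin D kinases, stood at 8.301, 8.404 and 7.29 CPM in WT DMSO and 22.8, 24.6 and 24.02 in WT Tm. In QRICH1 KO, CDKN2B stood at 12.2, 11.2 and 11.6 CPM under DMSO and 21.6, 23.4 and 17.98 under Tm. CDKN2B rose by 1.58 in WT (SE 0.155, adjusted p = 4.06e-07) and by 0.84 in QRICH1 KO (SE 0.147, adjusted p = 0.000632). Neither was called between the genotypes under Tm (adjusted p = 0.919 and 0.646). CDKN2C was called lower in WT from levels near the detection limit (1.22, 1.22 and 0.521 CPM under DMSO and 0, 0.244 and 0.152 under Tm), and CDKN1B, CDKN2A and CDKN2D had no call in either genotype.

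Of 6 pocket proteins and E2F repressors, which hold the G1 to S genes down, edgeR called RBL1 in WT, a share near the 11.1% of all tested genes that fell. This list leaves out E2F7 and E2F8, which were counted among the other replication genes. There E2F8 had the lowest log2 fold change in QRICH1 KO (-1.07) and E2F7 the highest interaction (0.85), which did not pass the test. RBL1, which encodes the pocket protein p107, stood at 16.6, 22.9 and 22.3 CPM in WT DMSO and 15.6, 11.1 and 12.9 in WT Tm, and fell by 0.65 on the log2 scale (SE 0.183, adjusted p = 0.0147). In QRICH1 KO, RBL1 stood at 16.7, 14.3 and 20.8 CPM under DMSO and 16.2, 16.9 and 18.7 under Tm, with overlapping groups (adjusted p = 0.998). RB1 stood at 43, 67.4 and 82.5 CPM in WT DMSO and 65, 25.03 and 42.7 in WT Tm, with overlapping groups and no call (adjusted p = 0.328).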
